A study of Homo sapiens with 6 samples.

Results

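Caveolae are flask-shaped pits of the plasma membrane. Caveolins embedded in the inner leaflet and cavins bound over them from the cytoplasm build the coat, and EHD2 and the F-BAR proteins PACSIN2 and PACSIN3 act at the neck, where EHD2 is an ATPase that holds the pit at the surface. CAVIN1 and CAV1 are both required for caveolae outside muscle, whereas CAV2, CAVIN2 and CAVIN3 are partners that depend on them, and the pits are known for buffering membrane tension, for lipid handling and for holding signalling receptors. The transcripts of 9 genes are described here: the cavins CAVIN1, CAVIN2 and CAVIN3, the caveolins CAV1 and CAV2, the neck proteins EHD2, PACSIN2 and PACSIN3, and CAVIN2-AS1, a long noncoding RNA on the strand opposite CAVIN2. They were found by symbol and stable identifier, and all 9 are in the table of 60668 genes, of which 28454 had a read and 21101 were tested, the 9 included. CAVIN2 was picked for its fall in these same libraries, and CAVIN2-AS1 because it overlaps CAVIN2, so the values of both are given as a description without a test, and the other 7, chosen by function, were tested.

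RNA-seq was performed on MiaPaCa-2, a human line established from a pancreatic ductal adenocarcinoma (PDAC), after 48 h in medium with 2.5 mM glucose (low glucose, 3 libraries) or in standard medium with 25 mM glucose (control, 3 libraries). No gene was edited and no drug was given in these 6 samples, and all come from this established line. In the deposited table the libraries are named av1, av2 and av3 (control) and av7, av8 and av9 (low glucose). The labels tie av7 and av8 to low glucose replicates 1 and 2, and the other 4 were grouped by the run of their names. The treatment field of the labels gives 2.5 mM for all 6 samples, against titles that call 3 of them controls.

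Control libraries held 9741183 to 10190154 reads on genes and low-glucose libraries 10595408 to 13733477. Replicates differed by more than counting noise, and their chi-square per gene lay between 4.63 and 18.9 among controls and between 1.90 and 2.89 in low glucose, where about 1 is expected from counting alone, and both control pairs that held av2 (8.74 and 18.9) exceeded the pair without it. The limma p-values rest on the spread between these libraries, with the variance of each gene drawn toward a trend over all genes. Values are normalized counts (reads divided by 1 size factor per library), and a gene was called when its limma p, adjusted by Benjamini-Hochberg over all tested genes, was under 0.05. Under this rule 6528 of 21101 genes (30.9%) were called, 3417 (16.2%) lower and 3111 (14.7%) higher in low glucose. Higher genes were 47.7% of the calls, and 59.8% when libraries were scaled by their total reads instead. Values of the 2 conditions did not overlap for 9259 genes (43.9%). The keratins KRT8, KRT18 and KRT19 and the filament protein VIM were abundant in every library (KRT8 20549 to 46963 and VIM 57844 to 82511 normalized counts), whereas EPCAM, an epithelial surface marker, had at most 1 read in any library.

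CAVIN2 (ENSG00000168497.5), first known as the serum deprivation response protein, lies at chr2:191834310-191847088 on the minus strand of hg38 and has 2 exons. CAVIN2-AS1 (ENSG00000233766.7) lies on the plus strand at chr2:191846534-192044525. Their exons share 238 bases, all in the coding part of the first CAVIN2 exon, and this stretch is shown because reads from it belong to either gene by strand alone. It reads as follows on the CAVIN2 strand, with no base capitalised (hg38, chr2:191846534-191846771).
Shared exon of CAVIN2 and CAVIN2-AS1: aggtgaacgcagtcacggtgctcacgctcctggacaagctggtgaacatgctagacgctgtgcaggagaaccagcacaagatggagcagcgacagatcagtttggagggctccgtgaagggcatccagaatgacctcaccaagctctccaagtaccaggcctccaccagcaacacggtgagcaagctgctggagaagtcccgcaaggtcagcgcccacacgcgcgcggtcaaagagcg

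The 250 bases before the RefSeq start of CAVIN2 and of CAV1 are shown because these genes of the same coat moved by very different amounts. Windows are from RefSeq on GRCh38.p14, at chr2:191847089-191847338 (minus strand) for CAVIN2 and chr7:116524786-116525035 (plus strand) for CAV1. Capitals mark matches to the motifs searched on both strands, namely the TEAD motif GGAATG, the CArG box, the CARE core TGATGNAA, the E-box CACGTG, the GC box GGGCGG, the TATA box TATAAA and the CCAAT box CCAAT.
CAVIN2 promoter: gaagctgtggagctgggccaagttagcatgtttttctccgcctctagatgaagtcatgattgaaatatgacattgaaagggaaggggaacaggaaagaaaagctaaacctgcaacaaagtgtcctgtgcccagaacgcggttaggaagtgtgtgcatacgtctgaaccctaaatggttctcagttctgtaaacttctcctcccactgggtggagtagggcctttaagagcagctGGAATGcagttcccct
CAV1 promoter: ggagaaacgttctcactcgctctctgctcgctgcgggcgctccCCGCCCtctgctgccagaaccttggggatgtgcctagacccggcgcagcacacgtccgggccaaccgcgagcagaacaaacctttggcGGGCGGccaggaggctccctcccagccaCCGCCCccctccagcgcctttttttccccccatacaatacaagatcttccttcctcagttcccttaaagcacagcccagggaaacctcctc

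The CAVIN2 window had a GC content of 48.0% and 4 CpG dinucleotides, against medians of 58.0% and 11 over 35116 promoter windows, of which 34.3% had 4 or fewer. Its only match was 1 TEAD motif at positions -16 to -11 from the start, and 11.9% of all windows held that motif. The CAV1 window was richer in G and C (63.2%, 16 CpG) and held 3 GC boxes, a motif found in 42.6% of windows. Of the 9 genes, 6 had a window in the table, and CAVIN1, CAVIN3 and PACSIN3 had none. CAV2 held 6 GC boxes, PACSIN2 2 GC boxes and 3 CCAAT boxes, EHD2 1 GC box, and CAVIN2-AS1 none of these motifs. The CArG box, bound by SRF, was in 1.16% of all windows, the CARE core in 3.14%, the E-box in 6.34%, the TATA box in 10.7% and the CCAAT box in 32.0%, and neither CAVIN2 nor CAV1 had a match to these 5. A match here is a match of letters and was not tied to binding of any factor.

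CAVIN1 fell in low glucose by about as much as separated the conditions for CAVIN2, CAVIN3 did not pass the test, and of the caveolins CAV1 fell slightly and CAV2 did not pass. CAVIN2 stood at 1945, 1879 and 1709.7 normalized counts in the control libraries and at 534, 591 and 580.4 in low glucose. Every low-glucose library was far below every control library, and within a condition the libraries lay close together. The means were 1845 ± 121 (SD, n = 3) and 568 ± 30.3 (SD, n = 3), 3.25-fold lower, with a log2 fold change of -1.70 and a standard error of 0.082. Among 13769 genes averaging 20 or more normalized counts, 23 had a more negative log2 fold change.

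CAVIN2-AS1 gave 482, 448 and 397 normalized counts in control and 125, 117 and 157 in low glucose. The conditions did not overlap for this RNA either. Its mean was 442 ± 42.8 (SD, n = 3) in control and 133 ± 21.2 (SD, n = 3) in low glucose, a log2 fold change of -1.74 with a standard error of 0.128. Divided by exon length, CAVIN2-AS1 stood at 0.142 ± 0.0047 (SD, n = 3) of the CAVIN2 level in control and at 0.138 ± 0.022 (SD, n = 3) in low glucose, and the ratios overlapped. Per canonical transcript, which is 867 bases for CAVIN2-AS1 in place of 5160 bases of union exon, the ratios were 0.844 ± 0.028 and 0.824 ± 0.128 (SD, n = 3). The libraries were made with a strand-specific kit, but the strand setting of the counting is not given in the sources used here, so reads of the shared stretch could have been counted for either gene and the pair cannot be told apart there.

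CAVIN1 (chr17:42402449-42423256, minus strand), the cavin on which the whole coat rests, was the most abundant of the 9 genes. It gave 10381, 13708 and 8911 normalized counts in control and 3617, 3783 and 3763.5 in low glucose. The control libraries differed 1.54-fold among themselves, with av2 highest, but even the lowest was more than any low-glucose value. CAVIN1 fell from 11000.2 ± 2458 (SD, n = 3) to 3721 ± 91.0 (SD, n = 3), 2.96-fold, with a log2 fold change of -1.54 (95% interval -1.80 to -1.28, limma adjusted p = 5.25e-07). Without av2 it was -1.37. CAVIN1 was listed for its function, and 36 of the 13769 genes averaging 20 or more had a more negative log2 fold change.

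CAVIN3 (chr11:6318946-6320532, minus strand), which joins the coat through CAVIN1, had 381, 324 and 411 normalized counts in control and 257, 345 and 302 in low glucose. The conditions overlapped, since av8 in low glucose lay above av2 in control. Its log2 fold change was -0.31 (95% interval -0.57 to -0.05) and the limma adjusted p was 0.0713. It passed without av2 (log2 fold change -0.40, limma adjusted p = 0.00524), and with a trend with GC content or exon length removed (adjusted p = 0.0121 and 0.00476). CAVIN3 shares 571 exon bases with an unnamed long noncoding RNA on the other strand (ENSG00000282556), which moved from 262 ± 49.1 (SD, n = 3) to 199 ± 16.8 (SD, n = 3) normalized counts, a log2 fold change of -0.38 (limma adjusted p = 0.0489), so the 2 values are not fully separate without knowing the strand setting.

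CAV1 (chr7:116524994-116561179, plus strand), the caveolin that drives formation of the pits, had 1804, 2021 and 1693 normalized counts in control and 1362, 1442 and 1511 in low glucose. All low-glucose values were below all control values, by a small margin. CAV1 fell from 1839 ± 167 (SD, n = 3) to 1438 ± 74.5 (SD, n = 3), 1.28-fold, with a log2 fold change of -0.35 (95% interval -0.53 to -0.17, limma adjusted p = 0.0051). The call was lost with quantile normalization (log2 fold change -0.14, adjusted p = 0.19) and without the variance trend (adjusted p = 0.0738). CAV2 (chr7:116287380-116508541, plus strand), which needs CAV1 to reach the surface, had 455, 410.2 and 463 normalized counts in control and 469, 449.5 and 452 in low glucose. The conditions overlapped fully around a mean of 443 ± 28.6 (SD, n = 3) in control and 457 ± 11.0 (SD, n = 3) in low glucose. The interval of its log2 fold change, -0.14 to 0.24 (limma adjusted p = 0.736), does not reach the fall of CAV1 (-0.35).

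**Figure D1:**
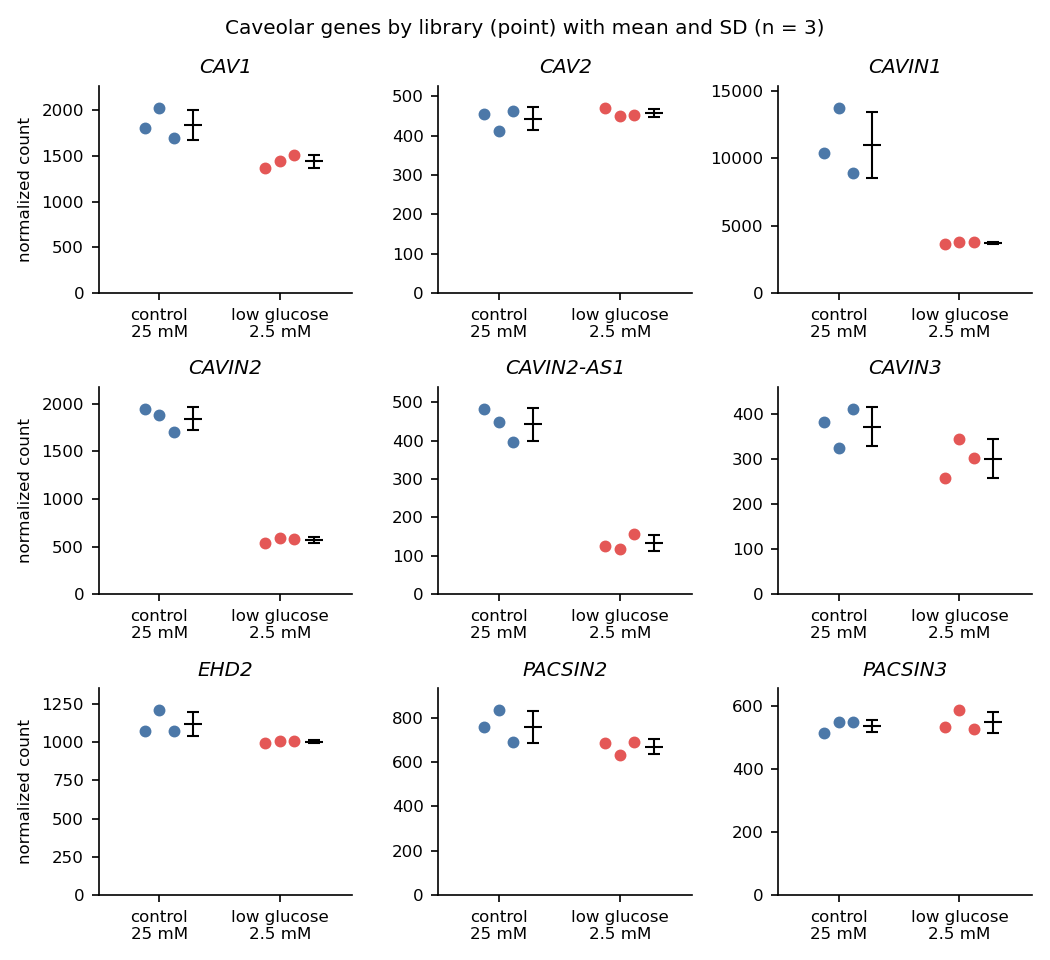
Normalized count (vertical axis, starting at 0) of each of the 9 genes in the 3 control libraries (blue points) and 3 low-glucose libraries (red points), with the mean and SD of each condition (black). CAVIN1, CAVIN2 and CAVIN2-AS1 lie far lower in low glucose (CAVIN2 534 to 591 against 1709.7 to 1945), CAV1 and EHD2 narrowly lower, and the points of the other 4 genes overlap.

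Of the 3 neck genes, limma called 0, as did DESeq2 and edgeR, and 0 had an unadjusted p under 0.05. EHD2 and PACSIN2 were called once a GC trend was removed (adjusted p = 0.0152 and 0.0377), and PACSIN2 also without av3 (log2 fold change -0.25, adjusted p = 0.0344). EHD2 (chr19:47713422-47743134, plus strand) had 1073, 1209 and 1073 normalized counts in control and 993, 1008 and 1008 in low glucose. These values did not overlap, but the gap was small, with a log2 fold change of -0.16 (95% interval -0.32 to 0.01, limma adjusted p = 0.153). PACSIN2 (chr22:42835412-43015149, minus strand), a membrane-curving F-BAR protein, had 756, 834 and 690.1 in control and 685, 630.2 and 692 in low glucose. Its conditions overlapped, with a log2 fold change of -0.18 (95% interval -0.37 to 0.01, limma adjusted p = 0.146). PACSIN2 shares 155 exon bases with ARFGAP3 on the same strand, and ARFGAP3 rose (log2 fold change 0.53, limma adjusted p = 0.000952), so reads of that stretch are uncertain. PACSIN3 (chr11:47177522-47186443, minus strand), its paralog, had 516, 548 and 548 in control and 533, 587 and 526 in low glucose, with a log2 fold change of 0.03 (95% interval -0.16 to 0.21, limma adjusted p = 0.836).

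Of the 7 genes chosen by function, 2 were called, CAVIN1 and CAV1, both lower. Of all tested genes, 30.9% were called in either direction and 16.2% lower. For 3 of the 7 the conditions did not overlap, against 43.9% of all tested genes. Their median log2 fold change was -0.18, that of all tested genes 0.05, and that of the 13769 genes averaging 20 or more -0.024. Beside these, CAVIN2 and CAVIN2-AS1 were as far down as CAVIN1, but that is how CAVIN2 was chosen. In bulk RNA, fewer cells carrying a transcript and less of it per cell cannot be told apart.

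**Figure D2:**
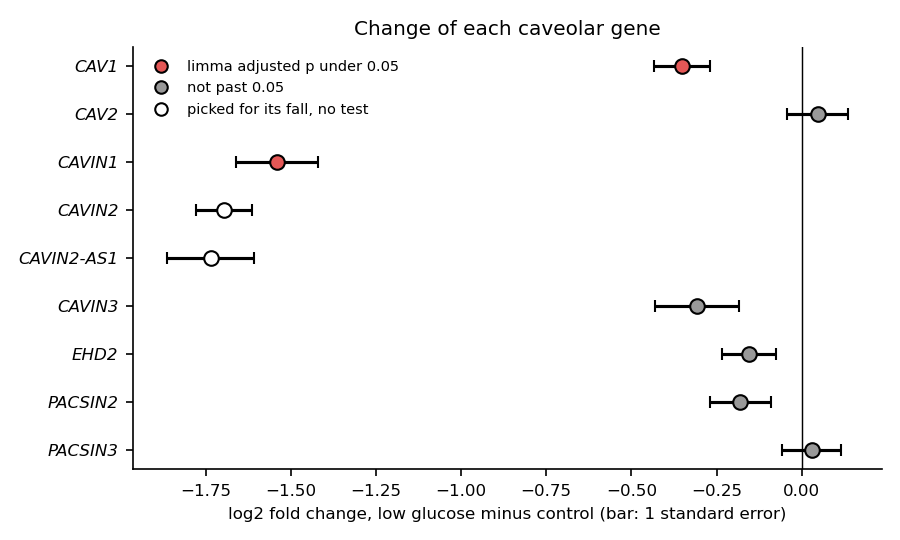
Log2 fold change (horizontal axis, low glucose minus control) of each gene with a bar of 1 standard error on either side. Red points passed a limma adjusted p under 0.05 and grey points did not. Open points, CAVIN2 (picked for its fall) and CAVIN2-AS1 (which overlaps CAVIN2), were not tested. CAVIN1, CAVIN2 and CAVIN2-AS1 lie between -1.74 and -1.54 and the other 6 between -0.35 and 0.05.

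Levels of different genes were compared as TPM, a share of all transcripts in a library after division by union exon length, computed from the recovered reads. In control the order was CAVIN1 (929 ± 205 TPM), CAVIN2 (182 ± 14.4), CAV1 (143 ± 13.0), EHD2 (87.7), CAVIN3 (72.1), PACSIN3 (58.8), PACSIN2 (50.3), CAVIN2-AS1 (25.9) and CAV2 (20.3). In low glucose CAVIN1 still stood first (301 ± 6.86 TPM). The means of CAV1 (107 ± 5.95), EHD2 (75.3), PACSIN3 (57.5 ± 2.84) and CAVIN3 (55.8 ± 7.69) lay above that of CAVIN2 (53.7 ± 2.66). PACSIN3 and CAVIN3 were close to CAVIN2 for this spread, and in av7 CAVIN3 was below CAVIN2. The order of the means depends on the length used. Per canonical transcript the control order was CAVIN1 (562 TPM), CAV1 (136), CAVIN2 (109.9), CAVIN2-AS1 (92.8), CAVIN3 (65.6), EHD2 (58.0), PACSIN3 (52.1), PACSIN2 (42.5) and CAV2 (27.2), and in low glucose PACSIN2 (36.5) also lay above CAVIN2 (33).

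The summed cavin level was 1183 ± 204 TPM in control and 411 ± 16.0 TPM in low glucose (SD, n = 3), and the summed caveolin level 164 ± 11.8 and 127 ± 5.72 TPM (SD, n = 3). Within the cavins, CAVIN1 made up 76.7, 82.3 and 75.2% of transcripts in control and 74.9, 71.9 and 73.3% in low glucose. CAVIN2 made up 16.8, 13.2 and 16.9% in control and 12.9, 13.1 and 13.2% in low glucose. CAVIN3 made up 6.46, 4.47 and 7.95% in control and 12.2, 15.0 and 13.5% in low glucose, so its share was higher in every low-glucose library although its own level did not rise. CAV1 made up 87.5 ± 1.64% of caveolin transcripts in control and 84.2 ± 0.98% in low glucose (SD, n = 3).

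**Figure D3:**
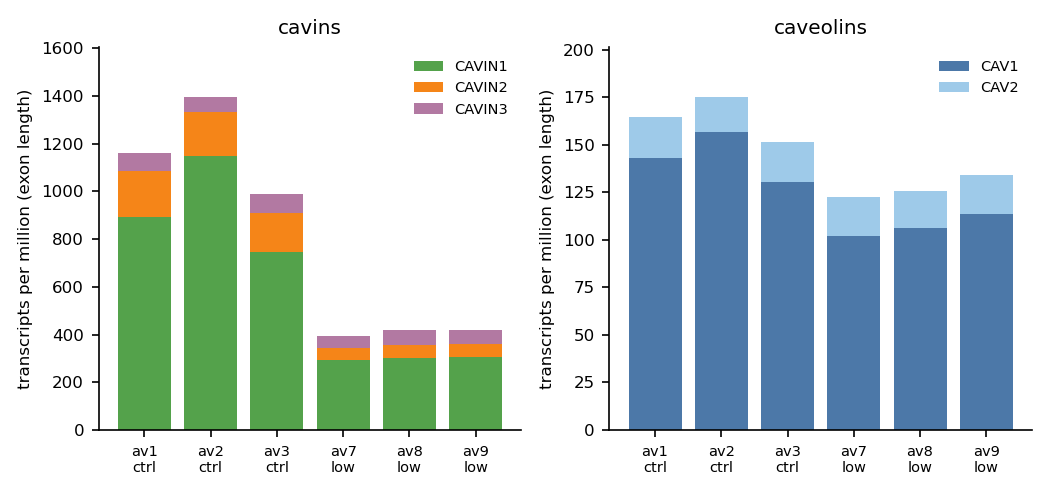
Stacked TPM (vertical axis, from 0, per exon length) of the 3 cavins (left) and the 2 caveolins (right) in each library, control (ctrl) and low glucose (low). The cavin bars reach 990.2 to 1396 TPM in control and 392 to 421 in low glucose. The caveolin bars reach 152 to 175 TPM in control and 123 to 134 in low glucose.

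Ratios within a library do not depend on the scaling between libraries. Their folds were taken from mean log2 ratios, so they can differ slightly from the quotient of the means shown. CAV1 stood at 0.160, 0.136 and 0.175 of the CAVIN1 level in control and at 0.348, 0.352 and 0.371 in low glucose, a 2.28-fold higher ratio. CAVIN3 relative to CAVIN1 was 2.35-fold higher (0.0814 ± 0.026 against 0.185 ± 0.023, SD, n = 3). The ratio of CAV1 to CAV2 went from 7.11 ± 1.13 to 5.36 ± 0.39 and that of EHD2 to CAV1 from 0.613 ± 0.022 to 0.703 ± 0.031 (SD, n = 3). For these 4 ratios the conditions did not overlap, which gives a two-sided exact permutation p of 0.1, the smallest that 3 against 3 allows, and 0.125 after adjustment over the 5 ratios tested, so none could pass 0.05. The ratio of PACSIN2 to PACSIN3 overlapped (0.855 and 0.740, exact permutation p = 0.3). Without a test, CAVIN2 relative to CAV1 went from 1.27 ± 0.094 to 0.501 ± 0.017 (SD, n = 3) without overlap, whereas CAVIN2 relative to CAVIN1 overlapped, at 0.201 ± 0.036 and 0.178 ± 0.0052 (SD, n = 3).

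The neighbours of CAVIN2 and CAV1 were read next. Within 500000 bases of its start, 2 genes other than CAVIN2-AS1 were tested. NABP1, a single-stranded DNA binding protein, rose from 126 to 344 normalized counts (log2 fold change 1.44, limma adjusted p = 7.99e-07), and TMEFF2 had only 2.20 and 2.25. Around CAV1, 3 of 11 tested neighbours were called, all higher, where 30.9% of all tested genes were called in either direction. TES, a focal adhesion protein, rose from 3.68 to 25.0 normalized counts (log2 fold change 2.53, limma adjusted p = 0.000256), MET, the receptor of hepatocyte growth factor, from 195 to 311 (log2 fold change 0.67, limma adjusted p = 0.000252), and the unnamed ENSG00000279086 from 2.16 to 8.82 (log2 fold change 1.92, limma adjusted p = 0.0437). ST7 and CAPZA2 were not called, with log2 fold changes of 0.03 and -0.07.

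The genes whose pattern over the 6 libraries lay closest to that of CAVIN2 were sought by the root mean square difference of centred log2 values over the other 13768 genes averaging 20 or more. RGS5, a regulator of G protein signalling, came first (0.0700), and its normalized counts spanned 5158 to 5556 in control and 1639 to 1779.9 under low glucose. E2F2, a cell cycle transcription factor (0.0750), MGAT5B, an N-glycan branching enzyme (0.102), FAM111B, a protease (0.122), and ADORA1, an adenosine receptor (0.123), followed. CAVIN2-AS1 ranked 7 (0.134) and CAVIN1 17 (0.176), whereas CAV1 ranked 2670 and CAVIN3 3449. The 6 libraries form 2 groups, and likeness over them is a description of that difference and of the spread within it.

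Around the coat, 94 genes in 7 related lists were looked up, of which 86 were tested. Of these, 46 were called (53.5%), 36 lower and 10 higher, with a median log2 fold change of -0.20. With scaling by total reads 27 were lower and 14 higher, and with quantile normalization 22 were lower and 14 higher. The share for all tested genes was 30.9% and their median log2 fold change 0.05, or -0.024 for those averaging 20 or more. When only the 15235 genes averaging 10 or more were tested, 6458 of them were called, a larger share than 30.9%, and 50 in the lists. The 30.9% includes genes with few reads. Here and beside the lists below, it is therefore not a share for genes of like abundance. Leaving out av7 lowered the list count of 46 to 27 and leaving out av9 to 30, with fewer calls over all genes as well (4298 and 4546).

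Of the 5 tested paralogs of the coat genes, limma called 0, as did DESeq2 and edgeR, and 0 had an unadjusted p under 0.05. EHD1, the endosomal relative of EHD2, had 1701 ± 239 and 1495 ± 104 normalized counts (SD, n = 3, log2 fold change -0.18, limma adjusted p = 0.182), and CAVIN4, the muscle cavin, only 14.6 and 13.7. CAV3, the muscle caveolin, had at most 1 read in a library.

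Among 11 genes of caveolar anchoring, scission, kinases and turnover, 5 were called lower and 1 higher (median log2 fold change -0.23). That is 54.5% called, where 30.9% of all tested genes were. ROR1, a receptor that scaffolds CAV1 and CAVIN1, had 143.5, 79.1 and 139 normalized counts in control and 34.6, 32.6 and 35.6 in low glucose. It fell by 1.74 on the log2 scale (limma adjusted p = 4.61e-05), with no overlap. FYN, a Src-family kinase, had 63.9, 76.9 and 66.3 in control and 164.5, 169.9 and 155 in low glucose, a rise of 1.23 on the log2 scale (limma adjusted p = 1.80e-05). FLNA, which ties caveolae to actin, fell (log2 fold change -0.52, limma adjusted p = 0.00123), as did VCP, an ATPase of caveolin turnover (-0.41, limma adjusted p = 0.00158). SRC and ABL1 were the other 2 called lower, by less, with log2 fold changes of -0.25 and -0.28. Of 10 tested receptors and signalling proteins found in caveolae, 1 was called higher and 2 lower, 30.0% against 30.9% of all tested genes. NOS3, the nitric oxide synthase that CAV1 holds inactive, had 13.5, 21.2 and 11.8 normalized counts in control and 32.7, 33.6 and 34.1 in low glucose (log2 fold change 1.11, limma adjusted p = 0.0106). LRP6, a Wnt co-receptor, and GNAI2, a G protein subunit, fell by 0.32 and 0.25 on the log2 scale (limma adjusted p = 0.0268 and 0.0141), and CD36 had no read. The calls of LRP6, GNAI2, SRC and ABL1 were lost with scaling by total reads and with quantile normalization. With the latter those of VCP (log2 fold change -0.18, adjusted p = 0.0963) and NOS3 (adjusted p = 0.0504) were lost too, and the anchoring list held 2 calls in each direction. The median of the receptor list was -0.03 as reported, 0.05 with scaling by total reads and 0.09 with quantile normalization.

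Clathrin genes, the other main coat of uptake, were also called. Of 18 tested, 9 were lower and 2 higher (61.1% called, against 30.9% of all tested genes, median log2 fold change -0.19). CLTB, a clathrin light chain, fell from 1590.4 ± 27.6 to 965 ± 57.0 normalized counts (SD, n = 3, log2 fold change -0.72, limma adjusted p = 8.06e-06). CLTC, the heavy chain, fell by 0.47 and AP2B1, an adaptor subunit, fell by 0.40 on the log2 scale (limma adjusted p = 0.00134 and 0.00816). EPS15, an accessory protein, rose (log2 fold change 0.46, limma adjusted p = 0.00212). Of 8 tested genes of flotillins and clathrin-independent uptake, 4 were lower and 1 higher (62.5% called, median -0.16). FLOT1 rose (0.38, limma adjusted p = 0.00135) and its partner FLOT2 fell (-0.34, limma adjusted p = 0.00849). The GTPase CDC42 and the endophilin SH3GL1 fell by 0.64 and 0.56 on the log2 scale (limma adjusted p = 0.000142 and 0.000139), and SH3GL3 had no read. With quantile normalization the clathrin list held 4 calls in each direction, the flotillin list had a median of 0.03, and AP2B1 and FLOT2 lost their calls (log2 fold changes -0.24 and -0.17, adjusted p = 0.0712 and 0.133). Without the variance trend CLTC, AP2B1, EPS15 and FLOT2 were not called (adjusted p = 0.0523 to 0.104).

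Of 19 tested YAP/TAZ targets, genes read by the tension-sensitive coactivators that act through TEAD, 8 were called lower and 2 higher (median log2 fold change -0.18). That is 52.6% called, against 30.9% of all tested genes. AMOTL2, an angiomotin relative, fell by 0.79 and CRIM1, a membrane protein, by 0.77 on the log2 scale (limma adjusted p = 5.79e-06 and 4.43e-06). RBMS3, an RNA-binding protein, had 25.0 and 12.3 normalized counts (-0.98, limma adjusted p = 0.0321). F3, tissue factor, had 6.59 and 17.7 (log2 fold change 1.38, limma adjusted p = 0.0483), and the targets most often named, CCN1 and CCN2, had log2 fold changes of 0.07 (limma adjusted p = 0.573) and -0.54 (limma adjusted p = 0.0294). CCN1 and CCN2, like SRC, ABL1, EHD1, CAVIN4 and CAV3, were named after their values were seen. The calls of F3, RBMS3 and CCN2 were lost with DESeq2 (adjusted p = 0.0625, 0.0716 and 0.0562), and F3 was 0.85 on the log2 scale without av2. FOXF2 had no read. Of 16 SRF/MRTF targets, genes of actin and adhesion, 9 were lower and 3 higher (75.0% called, median -0.29). VCL, vinculin, fell from 6650 ± 938 to 3145 ± 203 normalized counts (SD, n = 3, log2 fold change -1.07, limma adjusted p = 2.05e-06). ACTN1 and ACTB fell by 0.76 and 0.61 on the log2 scale (limma adjusted p = 1.09e-05 and 0.000362), and TGFB1I1, a focal adhesion adaptor, rose (0.96, limma adjusted p = 5.57e-05). FLNA is in the SRF/MRTF list and in the anchoring list. With scaling by total reads the SRF/MRTF list held 8 calls lower and 3 higher (median -0.21). With quantile normalization it held 7 lower and 3 higher (median -0.11).

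**Figure D4:**
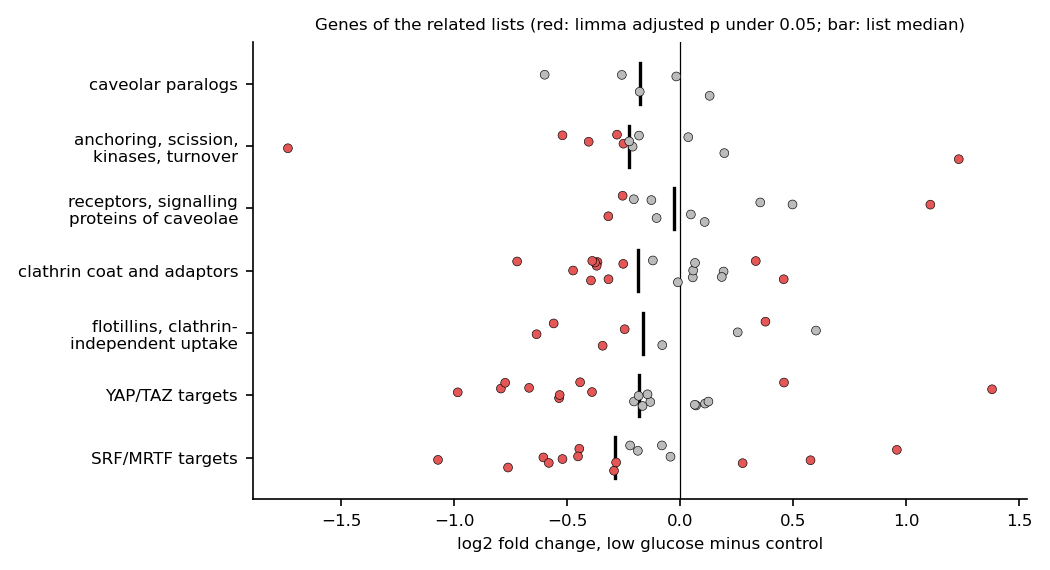
Log2 fold change (horizontal axis, low glucose minus control) of each tested gene of the 7 related lists, with red points past a limma adjusted p under 0.05, grey points not past it and a black bar at each list's median. The medians lie between -0.29 (SRF/MRTF targets) and -0.03 (receptors), and ROR1 (-1.74) is the lowest point.

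Caveolin and cavin levels are high in endothelial, fat, muscle and fibroblast cells, and markers of these were read beside them. Of 6 endothelial markers, KDR and TEK had no read and PECAM1 and VWF at most 4.5 normalized counts in a library, and CLDN5 at most 10. CDH5, the cadherin of endothelial junctions, was different, with 180.5, 184 and 155 in control and 9.6, 9.9 and 12.1 in low glucose (log2 fold change -3.92, limma adjusted p = 1.74e-08). The summed level of the 6 spanned 157 to 202 under control conditions and 9.88 to 15.9 under low glucose, most of it CDH5. The 5 adipocyte markers summed to at most 4.46 in a control library and 0.758 in a low-glucose library, with ADIPOQ, LEP and FABP4 without a read. The 5 muscle markers summed to 80.7 to 118 and 90.9 to 109, with MYOCD without a read. Of the 2 muscle markers tested, limma, DESeq2 and edgeR called 0, and 0 had an unadjusted p under 0.05. The 5 fibroblast markers summed to 2651 to 2880 and 1920 to 1946, almost all of it COL1A2, which fell (log2 fold change -0.52, limma adjusted p = 8.24e-05), and DCN had no read. In the line's own list KRT8, KRT18 and KRT19 fell by 1.01, 0.74 and 0.83 on the log2 scale (limma adjusted p = 3.26e-06, 4.29e-05 and 7.46e-06) and VIM rose (0.42, limma adjusted p = 0.00819), a call lost with quantile normalization (0.21, adjusted p = 0.206) and without av1, av7, av8 or av9 (adjusted p = 0.0545 to 0.0841). The part of CDH5, COL1A2 and the keratins in the values of the caveolar genes was not tested.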

How the data were processed

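Total RNA of MiaPaCa-2 cells was made into strand-specific libraries (NEBNext Ultra II Directional), which the authors aligned with STAR 2.7.0e (hg38) and analysed with DESeq2. The study's software list also holds RSEM, without saying for which step, and the strand setting of the counting and the annotation are not given in the sources used here. Deposited was a count-like signal per gene, the reads of a library over its own size factor. All values (100% in each library, within 0.01) were whole multiples of 1 step, so the reads were recovered, and 0 columns were left unmapped. Identifiers were matched to Gencode v44 (60295 of 60668, 99.4%).

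The main test was limma 3.58.1 (R 4.3.3) with lmFit and eBayes (trend) on log2(value + 1) for genes with a mean of at least 1, two-sided, 3 against 3 libraries, without covariates, with Benjamini-Hochberg adjustment over all genes and a threshold of 0.05. Fold changes on this scale understate those of low genes. DESeq2 1.42.0 and edgeR 4.0.16 were run on the recovered reads and called 5654 and 6554 genes. The other alternatives were scaling by total reads, TMM, quantile normalization, testing every gene with a read, a minimum mean of 10, a pseudocount of 0.1, no variance trend, each library left out, and, chosen after seeing the data, removal of a trend with GC content or exon length (loess, span 0.3) and canonical transcript lengths. Ratios were compared with exact permutation tests, and TPM were computed from recovered reads and exon lengths. The main limma fit, DESeq2 and edgeR were also run on simulated counts, and the other alternatives and the permutation tests were not. The members and lists were chosen with earlier results of these data known. Genes were named as all 9 members, up to 4 called genes with the largest change in each list and those without a read, the 5 genes closest to CAVIN2, tested neighbours within 500000 bases, and genes sharing exons. Of the 5 genes closest to CAVIN1, looked up afterwards, 4 are given and the other is not reported here. Tables used Python 3.11.15, pandas 2.3.3, numpy 2.4.6 and scipy 1.17.1, and plots matplotlib 3.10.9.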

Additional observations from a re-analysis of the deposited data

How the results depend on the processing

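The fall of CAVIN1 kept its direction and its call in all 11 alternatives with all libraries (log2 fold change -1.64 to -1.38) and in the 6 that left out a library (-1.68 to -1.37). Its limma adjusted p was 5.25e-07 as reported and 0.00869 without the variance trend. CAVIN2 ranged from -1.75 to -1.55, the latter with quantile normalization, and from -1.75 to -1.65 without a library. Of the 7 genes chosen by function, 1 was called with quantile normalization and 1 without the variance trend, since CAV1 was lost, and 5 were called once a GC trend was removed, which added CAVIN3 (-0.45), EHD2 (-0.28) and PACSIN2 (-0.27). CAVIN3 was also called with the length trend removed (-0.45). Leaving out a library gave 2 to 3, with CAVIN3 added without av2 and PACSIN2 without av3. Signs of small changes turned: EHD2 was 0.0072 with quantile normalization, PACSIN3 was -0.11 with the GC trend removed, -0.043 with the length trend removed and -0.021 to 0.058 without a library, and CAV2 was -0.0077 to 0.080 without a library. Without the variance trend 4090 genes were called in all and 24 in the related lists. Leaving out a library gave 4298 to 7173 genes and 27 to 51 in the lists, the lowest without av7. The cause of these shifts was not tested. The 5 tested ratios kept their direction without each library, and division by exon length cannot change their fold. No paired analysis was possible because the labels tie no replicate number to av1, av2, av3 or av9, so the replicate block was not run. With 3 libraries in each condition, the intervals of EHD2, PACSIN2, PACSIN3 and CAV2 include 0, and the smallest exact p for a ratio is 0.1.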

Other observations

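CAVIN1 was not chosen for its change, and the genes closest to it over the 6 libraries were looked up after its values were seen, by the same root mean square difference of centred log2 values over 13768 genes. MKI67, a marker of dividing cells, came first (0.0550), with 5859, 7612 and 4784 normalized counts in the control libraries and 1941, 2139 and 1906 in low glucose. Its control libraries had the same order as those of CAVIN1, with av2 highest and av3 lowest. Others close to CAVIN1 were HSPA1A, a heat shock protein with a near-identical copy (0.106), EFNA5, an ephrin (0.118), and F2R, the thrombin receptor (0.124). The control libraries of HSPA1A, EFNA5 and F2R had this order too, and all of these genes were picked for likeness to CAVIN1. The order was not particular to them. CAV1, PACSIN2, VCL, FLNA and KRT8 also had av2 highest and av3 lowest in control, whereas CAVIN2, CAVIN3, CAV2 and EHD2 did not. CAVIN2 ranked 21 on this scale. The part of cell division in the level of CAVIN1 was not tested.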
